A study of Drosophila melanogaster with 4 samples.

Results

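Chromosome 4 of Drosophila melanogaster was examined for the regions called enriched for HP2 by chromatin immunoprecipitation with sequencing (ChIP-seq). The members are all enriched regions, called clusters here, that the deposited lists place on chromosome 4. They number 147 of the 4092 clusters of ChIP replicate 1, 151 of the 7017 of replicate 2, and 175 of the 12660 of the list for the replicate set, called the combined list. Consecutive windows of 1 kb over the whole stated length of the chromosome, 1351857 bp, gave a further 1352 members, of 139719 such windows in the assembled sequence without Uextra. All positions refer to FlyBase release 5, which the file headers name.

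HP2 is the product of Su(var)2-HP2, a gene whose mutations suppress position-effect variegation, the patchy silencing of genes placed near heterochromatin. It binds the heterochromatin protein HP1a, which in turn recognises histone H3 methylated at lysine 9. Chromosome 4 is the smallest autosome of the fly. Its banded arm is rich in repeats and carries HP1a and methylated lysine 9, yet many of its genes are expressed, and reporter transgenes inserted at different sites along it are either silenced in patches or fully active. The arm is therefore used to study how active genes and heterochromatin proteins share the same sequence.

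The material was wild-type Oregon-R animals at the third larval instar, raised in bulk, from which fixed nuclei were taken. Whole larvae hold many cell types, so a cluster can come from some of the cells only. The antibody was Ab2-90, and 2 ChIP libraries had 2 input libraries of the same numbers, which enter only through the calls. The labels do not say whether the replicates came from separate collections, so their spread may be technical. Without read counts the depth is unknown, and a region without a cluster is one that was not called and not one shown to lack HP2. Genes under the clusters were not analysed here.

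HP2 clusters lay over much of chromosome 4 in both replicates. In replicate 1 they covered 39.3% of the chromosome and in replicate 2 they covered 64.3%, a mean of 51.8 ± 17.7% (SD, n = 2). A window was called occupied when at least 50% of it lay under clusters. By this rule 545 windows (40.3%) were occupied in replicate 1, against 7.24% of windows over the whole series, and 875 (64.7%) in replicate 2, against 15.6%. The spread between the libraries was large, but both values on chromosome 4 lay above both values of the whole series. The smallest p that an exact sign-flip test (two-sided) allows for 2 libraries is 0.5, so no comparison here can pass a test across replicates.

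Most windows were either wholly under clusters or wholly outside them. In replicate 1, 28.3% of windows were fully covered and 52.5% held no covered base. In replicate 2 these shares were 53.6% and 27.0%. The number of clusters hardly differed, at 149 ± 2.83 (SD, n = 2), while the cover was 1.64 times as large in replicate 2. The median width was 2.37 kb in replicate 1 and 2.77 kb in replicate 2, and the upper quartile was 4.45 and 6.16 kb. The rest of the sequence had upper quartiles of 2.47 and 3.05 kb. The heterochromatin scaffolds were closer, with median widths of 2.11 and 3.46 kb on 3LHet and 2.00 and 2.78 kb on 3RHet, so that in replicate 2 the median of chromosome 4 was not above theirs. The shortest cluster was 1.30 kb in each replicate list, on chromosome 4 as in the rest of the sequence, so narrower sites are not in these lists.

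Clusters of 10 kb or more carried much of the cover in replicate 2 and less of it in replicate 1. On chromosome 4 they numbered 10 in replicate 1 and 25 in replicate 2, or 6.80% and 16.6% of the clusters. They held 21.1% and 53.7% of the covered bases. In the rest of the sequence clusters of this width made up 1.09% and 3.22% of the clusters and 6.50% and 18.6% of the covered bases. These shares are not given for the heterochromatin scaffolds, but wide runs are compared with them further below. Neighbouring clusters were also close together. The median space between them was 1.67 kb in replicate 1 and 1.61 kb in replicate 2, against 9.97 and 5.18 kb in the rest of the sequence. Of 146 spaces on chromosome 4 in replicate 1, 55 (37.7%) were under 1 kb, against 12.2% in the rest of the sequence. Of 150 in replicate 2, 54 (36.0%) were, against 18.6%. In replicate 2 clusters were about as dense on the scaffolds. Clusters per 100 kb in replicates 1 and 2 were 10.9 and 11.2 on chromosome 4, 8.84 and 11.7 on 3LHet and 5.04 and 10.7 on 3RHet. The centromere-proximal 3 Mb of 2L had 4.73 and 5.77. Since many clusters of chromosome 4 lay close to a neighbour, the windows were also joined into runs.

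**Figure D1:**
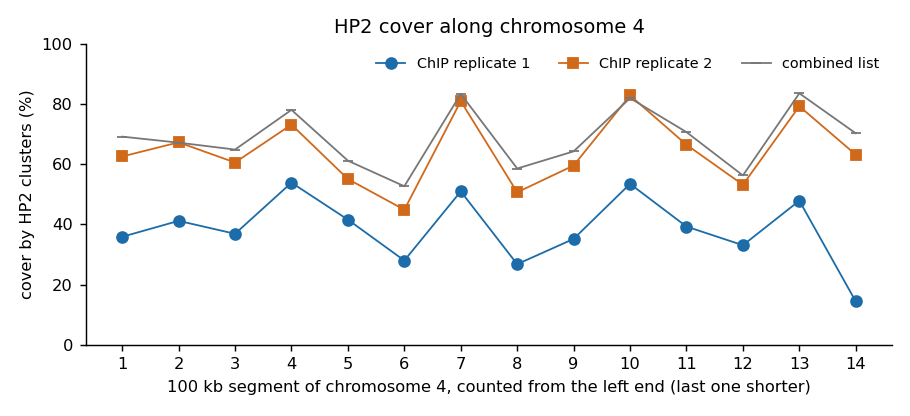
Share of each 100 kb segment of chromosome 4 under HP2 clusters (y axis, percent) against the segment's number from the left end of the assembled sequence (x axis), for ChIP replicates 1 and 2 and the combined list. Replicate 2 lies above replicate 1 in all 14 segments, and the lines peak together at segments 4, 7, 10 and 13. All fall in segment 14, replicate 1 the furthest, to 14.4%.

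Cover was spread along the whole arm. Divided into 3 equal parts from the left, which is the centromeric side, the chromosome was covered to 38.5%, 39.3% and 40.2% in replicate 1. In replicate 2 the values were 61.0%, 62.3% and 69.7%. Both rose from left to right, by little in replicate 1. On the scale of 100 kb the cover was uneven, and the plot of cover by segment shows a similar order in both replicates. Over the 14 segments Spearman's rho was 0.77, given as a description of segments that share their libraries. The lowest values before the last segment were in segment 8 in replicate 1 (26.8%) and in segment 6 in replicate 2 (44.9%). The highest were in segment 4 in replicate 1 (53.9%) and in segment 10 in replicate 2 (82.9%). The cover of replicate 2 was 1.32 to 1.89 times that of replicate 1 in segments 1 to 13.

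The last segment, the 51.9 kb from 1300001 to the right end of the sequence, stood apart. Clusters covered 14.4% of it in replicate 1 and 63.2% in replicate 2, a ratio of 4.40. Before it the chromosome was covered to 40.3% and 64.4%, a ratio of 1.60. Replicate 1 had no cluster from 1289001 to 1326000, where replicate 2 had 8 clusters with scores of 0.565 to 1.59, in the authors' units, and a cover of 57.4%. Further right the replicate 1 clusters were small. They lay at 1326944 to 1328466, 1339127 to 1342229, 1344475 to 1345868 and 1346287 to 1347711, with scores of 0.813 to 1.05. In replicate 2 the same stretch had clusters at 1325865 to 1335478, 1338840 to 1344214 and 1345426 to 1348558, with scores of 1.49, 1.45 and 1.70. By the ratio of their cover the replicates thus differed most at the distal end, although both had clusters within 4.15 kb of the end of the sequence.

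The longest stretch occupied in both replicates ran from 134001 to 168000. These 34.0 kb were covered to 92.8% by 5 clusters in replicate 1 and to 98.3% by 3 clusters in replicate 2. The length rests on where the windows begin, since some windows of the run were barely occupied in replicate 1. The longest replicate 1 run of the chromosome was 19.0 kb with windows shifted by 500 bp, 19.5 kb with windows of 500 bp and 14.0 kb when 90% of a window had to be covered. The run held the highest-scoring chromosome 4 cluster of replicate 1, at 148247 to 153866, with a score of 2.09, which ranked 17 of the 4092 clusters of its list. The replicate 2 cluster over that site had a score of 1.92.

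A second large domain lay further right, beyond some windows empty in both replicates. It held the shared runs ranked 2 and 8 by length, at 213001 to 232000 and 198001 to 210000. In replicate 2 a single cluster of 41.2 kb, from 195168 to 236408, covered both and was the widest of that list on chromosome 4, with a score of 2.05. Replicate 1 had 4 clusters in it, which covered 82.1% of it and scored 0.714 to 1.60. The widest replicate 1 cluster of the chromosome was among them, at 217739 to 231901 (14.2 kb, score 1.60). In the combined list the domain was 48.8 kb wide, from 192728 to 241496, and was again the widest cluster.

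Most of the 8 longest shared runs ended at or before 490000, and none reached beyond 983000. The runs not yet named began between 321001 and 970001. They lay at 379001 to 396000 (17.0 kb), 321001 to 337000 (16.0 kb), 475001 to 490000 (15.0 kb), 680001 to 693000 (13.0 kb) and 970001 to 983000 (13.0 kb). Each was covered to 91.8% or more in replicate 1 and to 99.2% or more in replicate 2. Replicate 1 split them into 2 to 4 clusters each, and replicate 2 gave 1 or 2. Their highest scores differed, from 0.729 at 475001 in replicate 1 to 1.87 at 970001, and from 1.11 at 379001 in replicate 2 to 2.06 at 970001. A long shared run was thus not always a high-scoring one.

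**Figure D2:**
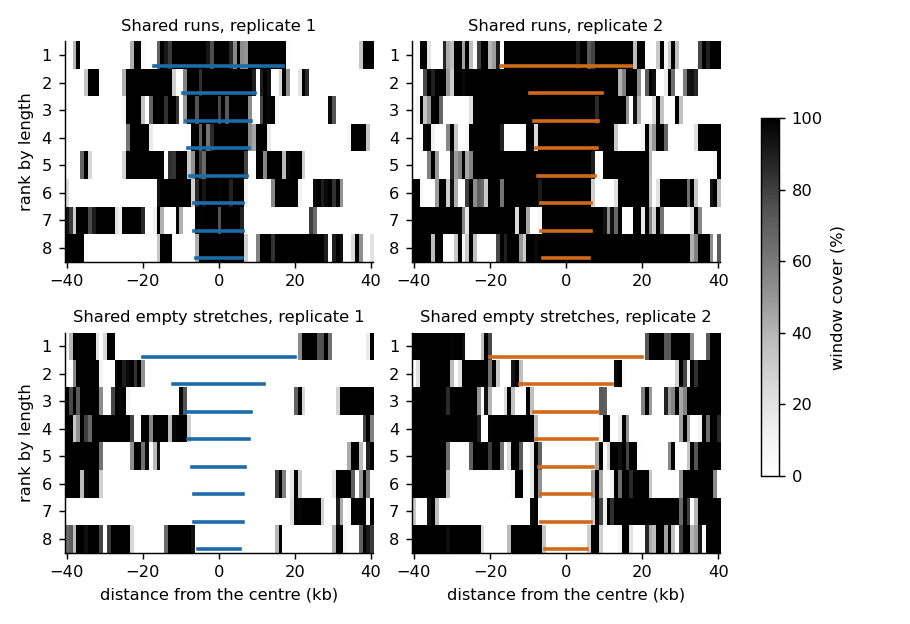
Cover of 1 kb windows (grey scale, 0 to 100%) around the 8 longest runs occupied in both replicates (top) and the 8 longest stretches empty in both (bottom), with the distance from the centre in kb on the x axis and the rank by length on the y axis. Coloured lines mark the run or stretch itself, from 12.0 to 34.0 kb for the runs and from 11.0 to 40.0 kb for the empty stretches, and the surroundings are darker in replicate 2.

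Long stretches without any cluster interrupted the covered sequence. In all, 362 windows (26.8%) held no covered base in either replicate, against 78.8% over the whole series. Of these, 294 were also empty in the combined list, and 39 were occupied there. The longest shared empty stretch was 1097001 to 1137000, 40.0 kb, where none of the 3 lists had a cluster. Counted to the base it ran from 1096776 to 1137270 over both replicates.

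The right border of this stretch was nearly the same in every list. The next cluster began at 1137463 in replicate 1, at 1137271 in replicate 2 and at 1137270 in the combined list, with scores of 0.727, 1.20 and 0.981. The 10 kb to the right of the stretch were covered to 76.7% and 91.8% in replicates 1 and 2. The left border was less sharp. The last cluster ended at 1089020 in replicate 1 and at 1096775 in replicate 2, a difference of 7755 bp, and the left 10 kb were covered to 20.2% and 50.9%.

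Of the 8 longest stretches, 4 formed neighbouring pairs in the middle of the chromosome. The second by length, 727001 to 751000 (24.0 kb), and the seventh, 754001 to 767000, were separated in replicate 2 by a single cluster of 2.00 kb at 751039 to 753039, with a score of 0.454. In replicate 1 no cluster lay from 719001 to 779000, a span of 60.0 kb that was its longest empty stretch. The combined list had 4 small clusters inside the second stretch, between 732126 and 741898, with scores of 0.0464 to 0.369, and they covered 20.0% of it. The other 7 stretches were covered to at most 10.1% in that list.

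The other pair was made of 505001 to 521000 (16.0 kb) and 529001 to 542000 (13.0 kb). In replicate 2 the clusters between them were at 521930 to 524023 and 526850 to 528515, with scores of 0.464 and 0.322. Replicate 1 had none from 505001 to 550000. The left border of this pair was sharp, since the preceding cluster ended at 504288 in replicate 1, 504382 in replicate 2 and 504664 in the combined list. The 10 kb before the border were covered to 86.4% and 93.8% in replicates 1 and 2. At 92001 to 103000 (11.0 kb) the left border was similarly placed, with clusters ending at 90942 and 91343 and scores of 1.41 and 2.03. The remaining stretches were 418001 to 435000 (17.0 kb) and 835001 to 849000 (14.0 kb), both also empty in the combined list.

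Runs of occupied windows were similar in number in the replicates and longer in replicate 2. Replicate 1 had 100 runs with a median of 3.00 kb and a longest run of 34.0 kb, a length that falls under other windows as given above. Replicate 2 had 108 with a median of 4.00 kb and a longest run of 43.0 kb. Runs of 20 kb or more numbered 1 in replicate 1 and 15 in replicate 2. Wide runs, of 10 kb or more, held 43.1% of the occupied windows in replicate 1, against 12.7% over the whole series, and 67.3% in replicate 2, against 28.4%. When 90% of a window had to be covered, the replicate 1 share was 21.0% and that of replicate 2 61.7%. Empty windows showed the opposite order, with 13 empty stretches of 20 kb or more in replicate 1 and 2 in replicate 2.

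**Figure D3:**
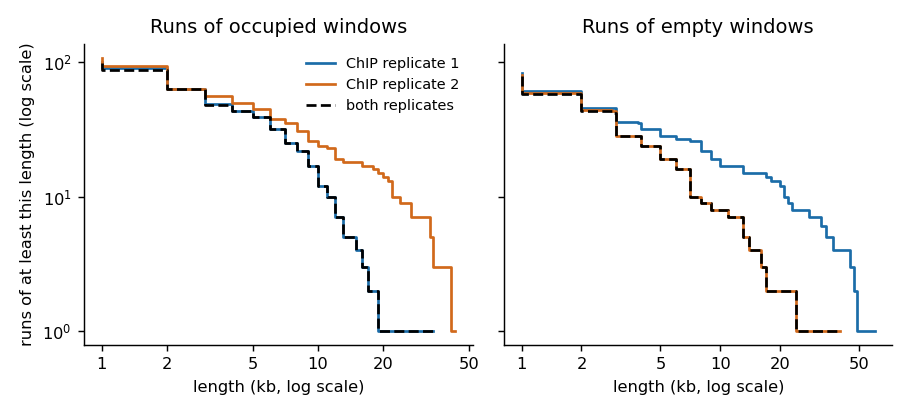
Number of runs of at least a given length (y axis, log scale) against length in kb (x axis, log scale), for occupied windows (left) and empty windows (right) of chromosome 4. The shared occupied runs (dashed) follow replicate 1 up to its 34.0 kb maximum, and the shared empty stretches follow replicate 2 up to its 40.0 kb maximum.

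Occupied windows lay close together over several kb, which is in part set by the width of single clusters. Clusters were 1.30 to 14.2 kb wide in replicate 1 and 1.30 to 41.2 kb in replicate 2. No whole-series values are given beside the following shares. Of windows 1 kb from an occupied one, 81.7% were occupied in replicate 1 and 87.7% in replicate 2. At 10 kb the shares were 50.8% and 72.6%, and at 20 kb 44.8% and 68.0%, close to the 40.3% and 64.7% of all windows. At 50 kb they were below these, at 31.3% and 59.0%. At 100 kb they were 42.1% and 65.8%.

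The replicate 1 pattern lay almost wholly inside that of replicate 2. Of the 545 windows occupied in replicate 1, 540 (99.1%) were occupied in replicate 2, and these made up 61.7% of the replicate 2 windows. Windows occupied in both replicates were 39.9% of the chromosome and 6.29% over the whole series. Over the whole series nesting was less complete, with 8790 of the 10117 windows occupied in replicate 1 also occupied in replicate 2. Replicate 2 had 21769 occupied windows there. Among the parts most like chromosome 4, however, such nesting was not particular to it. On 3LHet 27.5% of windows were occupied in replicate 1 and 27.5% in both, and on 3RHet 14.5% and 14.4%. In the centromere-proximal 3 Mb of 2L the shares were 15.7% and 15.2%. By cluster, 145 of 147 in replicate 1 shared bases with replicate 2 (98.6%, exact 95% interval 95.2 to 99.8%), against 86.0% over the whole series. In the other direction it was 77 of 151 (51.0%, 42.7 to 59.2%), against 41.7%. Overlap is more likely where cover is higher, and the intervals cover counting error only.

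Each overlapped replicate 1 cluster met exactly 1 replicate 2 cluster, and 130 of the 147 lay wholly inside it. Of the 77 replicate 2 clusters concerned, 47 held 1 replicate 1 cluster and 30 held 2 to 7. In total 98 replicate 1 clusters were in such joint regions. The cluster at 362785 to 395739 (33.0 kb) held 7 replicate 1 clusters with scores of 0.461 to 0.962, which covered 85.0% of it and left spaces of at most 1.99 kb. The cluster at 600328 to 613316 (13.0 kb) held 6, with spaces of at most 0.848 kb. Those at 457438 to 489895 and at 620323 to 641400 held 5 each, covering 89.4% and 75.0%. Among the 47 clusters that met one to one, the replicate 2 cluster was wider in 46. Its width was 1.45 times that of its partner at the median. The same counts are not given for other parts or the whole series. Replicate 2 clusters were also wider elsewhere, with a median of 2.07 against 1.97 kb in the rest of the sequence. The medians were 3.46 against 2.11 kb on 3LHet and 2.78 against 2.00 kb on 3RHet. In the centromere-proximal 3 Mb of 2L they were 2.39 against 2.16 kb.

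The exceptions were few. The replicate 1 clusters without overlap in replicate 2 lay at 824618 to 825940 (score 0.618) and 1241207 to 1242734 (score 0.677). The former was only 5 bases from the nearest replicate 2 cluster, and the latter 1259 bases. Both overlapped combined clusters, with scores of 0.452 and 0.516, and neither was among the lowest of replicate 1, ranking 83 and 98 of 147 from the lowest score.

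The additional bases of replicate 2 were of 3 kinds. Of its 870 kb, 527 kb (60.6%) lay under replicate 1 clusters. Another 54.9 kb (6.31%) filled spaces between replicate 1 clusters of the same replicate 2 cluster, and 135 kb (15.5%) lay outward of the outermost one. The remaining 153 kb (17.6%) were in the 74 clusters with no replicate 1 cluster. In 3LHet, 3RHet and the centromere-proximal 3 Mb of 2L such separate clusters made up 26.3%, 40.4% and 24.0% of the replicate 2 bases, as the plot of replicate 2 bases by kind shows. Taken as a share of the additional bases alone, they were 44.6% on chromosome 4, close to the 46.0% of 3LHet and the 47.9% of proximal 2L, and 59.3% on 3RHet.

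**Figure D4:**
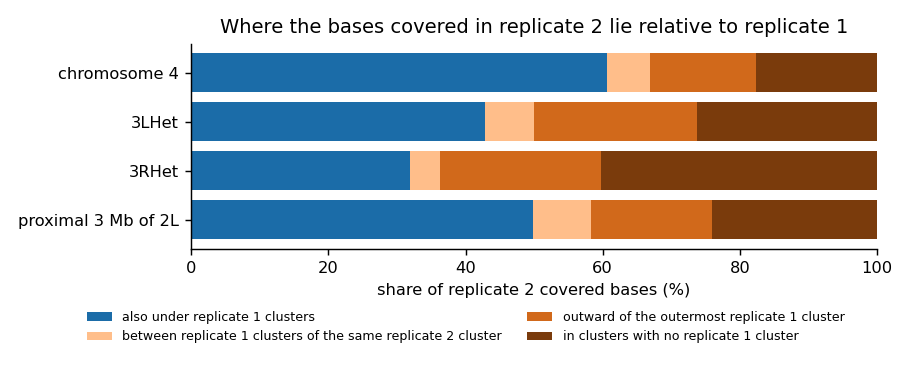
Bases covered in replicate 2 (x axis, percent of all its covered bases) by their place relative to replicate 1 clusters, for chromosome 4, the scaffolds 3LHet and 3RHet and the centromere-proximal 3 Mb of 2L. On chromosome 4, 60.6% were also under replicate 1 clusters, against 42.8%, 31.9% and 49.8% in the others.

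Most of these 74 clusters were narrow and low in score. Their median width was 1.89 kb and their median score 0.468, against 6.10 kb and 1.11 for the 77 that overlapped replicate 1. Of the 74, 11 (14.9%) were above the median score of replicate 2 clusters on the chromosome, against 64 of 77 (83.1%). A wider cluster is more likely to share a base with replicate 1, and scores rose with width in this list (rho 0.80). These contrasts are thus in part set by how overlap was defined, and no whole-series share is given beside them. Of the 74, 34 lay within 5 kb of a replicate 1 cluster and 13 were more than 10 kb away, the farthest at 26.7 kb. The 5 longest stretches empty in replicate 1 held 24 of them (32.4%). Those stretches measured 60.0, 49.0, 47.0, 45.0 and 37.0 kb, out of 710 windows of 1 kb empty in replicate 1. A replicate 2 cluster inside such a stretch has no overlap by construction, so the count is no sign of a concentration there. The longest runs occupied in replicate 2 over windows empty in replicate 1 were 8.00 kb, at 613001 to 621000, 771001 to 779000, 983001 to 991000 and 1298001 to 1306000. The next, at 853001 to 860000, was 7.00 kb.

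The 2 highest-scoring replicate 2 clusters of the chromosome had no replicate 1 cluster at all. One, at 8040 to 10040, was 2.00 kb wide with a score of 2.62, and ranked 50 of 7017 in its list. In the combined list it fell in the cluster at 8076 to 11584, whose score of 1.75 was the second highest on the chromosome. The other, at 613365 to 614783, was 1.42 kb wide with a score of 2.48 and ranked 62 of 7017. In the combined list it fell in a cluster that reached beyond it on both sides and scored 0.706. That score lay between the median of 0.439 and the upper quartile of 0.787 of the combined clusters on chromosome 4. The replicate 2 cluster lay just beside the right edge of the cluster at 600328 to 613316, which was seen in both replicates.

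**Figure D5:**
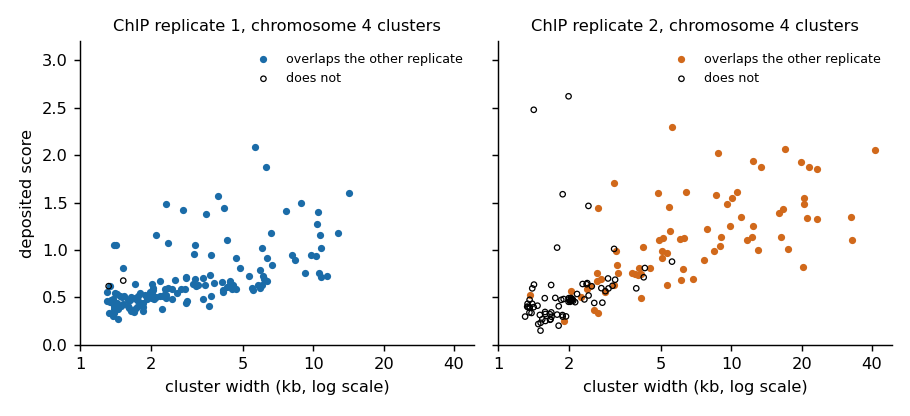
Deposited score (y axis, authors' units) against cluster width in kb (x axis, log scale) for the chromosome 4 clusters of each replicate, filled where the cluster overlaps the other replicate. Open points in replicate 2 gather at narrow widths and low scores, but 6 of them score above 1, the highest at 2.62 and 2.48.

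Scores rose with width in both lists, with a Spearman's rho of 0.70 over 147 clusters in replicate 1 and 0.80 over 151 in replicate 2. In the rest of the sequence rho was 0.53 and 0.60. These are descriptions across clusters, which are not independent. Clusters in wide runs had median scores of 0.770 in replicate 1 and 1.13 in replicate 2, against 0.537 and 0.547 for the other clusters. They were also wider, with medians of 5.07 and 9.06 kb against 2.06 and 2.22 kb. Wide clusters fall in wide runs by definition, and scores rose with width, so both contrasts are in part set by how runs were defined. Replicate scores of the 145 overlapping pairs had a rho of 0.59. These pairs hold 77 replicate 2 clusters, so the score of 1 such cluster enters up to 7 times. Of the chromosome 4 clusters, 23 (15.6%) were in the highest-scoring 10% of the whole replicate 1 list and 25 (16.6%) in that of replicate 2. Typical scores were close to those elsewhere. In replicates 1 and 2, 54.4% and 53.0% of the chromosome 4 clusters were above the median of the whole list. Their median scores were 0.587 and 0.651, against 0.571 and 0.631 in the rest of the sequence.

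Some high scores were shared. The cluster at 976625 to 982880 had the second highest score of replicate 1 on the chromosome, 1.87, and lay in the replicate 2 cluster at 969926 to 986937, with a score of 2.06, the fourth highest there. At 62880 to 66783 the scores were 1.56 and 1.61, and at 1046786 to 1055621 they were 1.50 and 1.87. The left end of the assembled sequence was covered in both, from 10 to 2116 in replicate 1 (score 1.16) and from 2 to 5577 in replicate 2 (score 2.30). Between that end and 13396, where the next replicate 1 cluster begins, only replicate 2 and the combined list had further clusters.

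Few clusters of the combined list lay outside those of both replicates. Of its 175 clusters, 74 (42.3%, 34.9 to 50.0%) overlapped clusters in both replicates, against 22.3% over the whole series. Another 70 did so in replicate 2 only and 1 in replicate 1 only. The other 30 (17.1%, 11.9 to 23.6%) overlapped neither, against 43.9%. Overlap is more likely where cover is higher, and replicate 2 covered 64.3% of chromosome 4 and 15.0% of the rest of the sequence. The intervals cover counting error only and are no test of these differences. The clusters found in both had a median width of 6.61 kb and together covered 741 kb. Those found in neither had a median width of 1.09 kb and covered 36.5 kb. All 147 replicate 1 clusters and 150 of 151 replicate 2 clusters overlapped a combined cluster.

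Compared with the scaffold 3LHet, which is heterochromatin of the third chromosome not joined to its arm, chromosome 4 was 1.47 times as densely covered in replicate 1 and 1.03 times in replicate 2. The mean ratio of 1.25 ± 0.31 (SD, n = 2) differed from 1 by less than the spread between replicates. When only the 50% of clusters with higher scores were kept, the replicate 2 ratio turned to 0.909, so the order of chromosome 4 and 3LHet depends on the clusters counted. For 3RHet the ratios were 2.76 and 1.45, and for the centromere-proximal 3 Mb of 2L they were 2.54 and 2.13, a mean of 2.34 ± 0.29 (SD, n = 2). The exact two-sided sign-flip p was 0.5 for each of the 3 ratios, the smallest this design allows. With all clusters the cover of chromosome 4 was higher than each of these in both replicates, but no difference can pass a test.

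Wide runs were compared in the same way, as values without a test. In replicate 2 wide runs held 67.3% of occupied windows on chromosome 4, 63.0% on 3LHet, 41.6% on 3RHet and 64.4% in the proximal part of 2L. In replicate 1 the values were 43.1%, 27.5%, 24.0% and 19.7%. The longest stretch empty in both replicates was 40.0 kb on chromosome 4, against 50.0, 87.0 and 150 kb. The other parts are longer than chromosome 4, which gives them more room for a long stretch.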

How the data were processed

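Reads were aligned with Bowtie 0.12.7, per the submitters' processing notes. The deposited files list significantly enriched regions with start, end and a score, on FlyBase release 5 per the file headers. The scale of the score deposited by the authors, the region caller, its threshold and how replicates were joined are not stated in the labels or headers, so scores only rank clusters within a list. Precision is limited to the spread between replicates and to exact (Clopper-Pearson) 95% intervals for shares of clusters.

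Cover, windows and runs were computed in Python 3.11.15 with numpy 2.4.6 and scipy 1.17.1, and checked on 20 simulated chromosomes. Clusters overlapped when they shared at least 1 bp. Regions named are the 8 longest shared runs and empty stretches, the widest and highest-scoring clusters, replicate 1 clusters without overlap, replicate 2 clusters holding most replicate 1 clusters, and the longest runs seen in replicate 2 alone. Clusters at the right end, at the left end and at borders of empty stretches were chosen after their values were seen. The members and lists were chosen with earlier results of these data known. The gene table at hand is on release 6, so genes were not placed, and no genome sequence was used here.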

Additional observations from a re-analysis of the deposited data

How the results depend on the processing

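Of the 13 values compared, the mean ratios of cover to 3LHet, 3RHet and proximal 2L stayed above 1 under merging, under the higher-scoring 50% and without either replicate. The longest shared empty stretch, 40.0 kb, was 38.0 to 47.0 kb in the alternatives that keep both replicates and 60.0 kb without replicate 2, where it was another stretch. Merging clusters 1 kb or less apart lowered their mean number from 149 to 94.5 and raised the median width from 2.57 to 4.07 kb. With the higher-scoring 50% of each list these were 80.0 and 5.03 kb, the mean longest run was 30.0 kb, the windows occupied in both replicates 29.8%, the replicate 1 windows recovered in replicate 2 97.8%, and the windows empty in both 40.9%. The mean longest run, 38.5 kb, depended on the window rule. It was 31.8 kb with 500 bp windows, 46.0 kb with any overlap, 28.5 kb at a limit of 90%, and 47.0 kb with runs joined across a single unoccupied window, an alternative chosen after seeing the data. In replicate 1 the longest run fell from 34.0 kb to 19.0 kb with shifted windows, 19.5 kb with 500 bp windows and 14.0 kb at 90%, while in replicate 2 it was 46.0, 44.0 and 43.0 kb. Windows occupied in both were 47.3% with any overlap and 30.9% at 90%, where 99.8% of replicate 1 windows were recovered. Windows empty in both, 26.8%, were 30.6% with 500 bp windows, 21.0% with 2 kb windows, 34.9% when under 50% cover counted as empty, and from 27.0 to 52.5% when 1 replicate was left out. Without replicate 2 the windows empty were thus 52.5%. Windows shifted by 500 bp kept the 7 values taken over both replicates within their limits, the mean longest run at 32.5 kb included. Causes of these shifts were not tested beyond the construction of each alternative. No paired analysis was possible because the inputs, which share replicate numbers with the ChIP libraries, have no list of their own here and the ChIP libraries form a single group.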
